A study of Mus musculus with 8 samples.

Results

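The collagen genes of the mouse were followed in cortical mRNA of animals carrying the Ago2 L192P variant. A gene was taken as a member where the count table annotated it as protein-coding and where its symbol had the form of a collagen chain, Col followed by a type number, the letter a and a chain number. Of 55416 genes in the table, 44 met this rule, which used no measured value. The count data come from the cerebral cortex of mice heterozygous for a knock-in of L192P in Ago2 (L192P, 4 libraries) and of wild-type mice (WT, 4 libraries). The knock-in was made by CRISPR/Cas9 in one-cell embryos of the C57BL/6JUke background. The repair template also carried a silent change in the PAM, and founders were crossed to wild-type C57/Bl6 animals. The residue is numbered 1 higher in mouse than in human AGO2. Age and sex of the animals are not given in the sources used here. The labels do not say that each library is a separate animal, so the p-values measure the spread between these libraries.

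Collagens are the trimeric structural proteins of the extracellular matrix. Fibrillar chains build the fibres of the meninges and of the adventitia of vessels, type IV chains form the sheet of the vascular and pial basement membrane, and the type VI chains form beaded filaments beside it. In the brain most of these chains are made by fibroblasts and by endothelial and mural cells, whereas a few transmembrane and FACIT collagens are made by neurons. Argonaute 2, the product of Ago2, is the protein that a miRNA guides to sites in the 3′ UTR of target mRNAs. Collagen mRNAs are textbook targets of the miR-29 family, which lowers their output in many tissues.

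The mature guides of the family are shown because their shared seed, bases 2 to 8 from the 5′ end, in capitals, defines the sites that were searched. The sequences are from RefSeq (mouse, GRCm38.p6).
mmu-miR-29a-3p: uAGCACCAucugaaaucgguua
mmu-miR-29b-3p: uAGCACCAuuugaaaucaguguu
mmu-miR-29c-3p: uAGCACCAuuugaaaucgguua

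A site was an exact match on the transcript strand of the 3′ UTR of the canonical GENCODE transcript, either to the seed (TGGTGCT), to the seed with an A opposite base 1 (TGGTGCTA), or to bases 2 to 7 with that A (GGTGCTA). An 8-base match holds both 7-base matches and was counted once. Of the 44 collagen genes, 27 (61.4%) had at least 1 site, against 3058 of 14887 tested protein-coding genes with a 3′ UTR (20.5%). The 8-base form was present in 16 collagen genes (36.4%) and in 541 of all those genes (3.63%). The median 3′ UTR was shorter in collagen genes, at 1060 bases against 1362. The 55 sites were made up of 19 of the 8-base form, 26 matches to the seed alone and 10 matches to bases 2 to 7 with the A. A match of letters is a description and does not show binding.

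The distribution over classes was uneven. Sites were found in 10 of 11 fibrillar genes, in 6 of 6 basement membrane genes, in 3 of 6 beaded filament genes, in 4 of 9 FACIT genes, in 2 of 4 network and anchoring genes, in 1 of 2 multiplexin genes and in 0 of 4 transmembrane genes. The most sites per gene were 4, in Col4a3, Col5a1 and Col26a1, and Col4a5 held 3 of the 8-base form. For Col18a1 the canonical transcript has no annotated 3′ UTR, and that of Col25a1 is 30 bases long, so that these windows hold next to no sequence. When any annotated coding transcript was allowed, 28 collagen genes (63.6%) and 28.6% of all those genes had a site, and Col25a1 was the gene gained.

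For 7 of the genes to which the comparison below returns, 1 site each is printed 5′ to 3′ on the strand of the gene in GRCm39, with the matched bases in capitals, the 8-base match being taken where a gene had several sites. The sites belong to the chains of types I and III and to Col6a2 and Col6a3 of type VI, whose estimates were among the highest. The others are those of Col19a1, whose estimate was lower in L192P, and of Col4a1, whose estimate was near 0. Col6a1, a type VI chain that also has a site, had an estimate of 0.02 and is not printed. Col9a1 and Col4a5, with 8-base sites and estimates of 0.44 and 0.41, are not printed either. Col13a1 and Col23a1, at 0.64 and 0.40, have no site. The printed genes were picked with their estimates known, so they do not show a link between site and estimate.
Col1a1, chr11:94843350-94843371, plus strand: tgggaaggaatttcTGGTGCTA
Col1a2, chr6:4541163-4541184, plus strand: tgcttgcaacacaaaGGTGCTA
Col3a1, chr1:45388128-45388149, plus strand: tcaaaatgtctcaaTGGTGCTA
Col6a2, chr10:76432004-76432025, minus strand: ctccatcccatctgTGGTGCTA
Col6a3, chr1:90695133-90695154, minus strand: gtgacctgtcaataTGGTGCTA
Col19a1, chr1:24301846-24301867, minus strand: ataaggtgaaaagtTGGTGCTA
Col4a1, chr8:11249761-11249782, minus strand: ccaccgtcacaacaTGGTGCTA
Col1a2 has the 7-base match only, whereas the other 6 genes have the 8-base match.

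The libraries held 20396357 to 43575900 counts, WT replicate 2 being the deepest, and the collagen genes together took 0.0195% to 0.0262% of them. Replicate 1 of either genotype stood apart. It had at most 1.82 normalized counts of Xist, against at least 5185 in the other 6 libraries, and the lowest summed levels of endothelial, mural, astrocyte and microglia markers within its genotype. A normalized count is a count divided by the DESeq2 size factor of its library. WT replicate 2 stood apart for the collagens themselves. It was the highest WT library for 30 of 44 collagen genes (68.2%), against 26.6% of all tested genes, and the lowest for 0. The excitatory neuron markers that define cortex were high in every library, with summed levels from 41862 to 49836 normalized counts. The choroid plexus markers, led by Ttr, were also present throughout, with sums from 14809 to 39078. Replicate 3 of either genotype had the highest summed hippocampus markers of its genotype, 10108 in L192P and 8827 in WT. Lct was at 187.9 and 179.2 in these libraries, against at most 41.0 in any other, and Dsp at 123.4 and 166.2, against at most 37.3. The hippocampus markers Grp and Calb2 were instead highest within WT in replicate 1.

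No collagen gene passed the unpaired test of L192P against WT. All 44 were expressed highly enough to enter it, and with DESeq2 0 had an adjusted p under 0.05, whereas 253 of 18627 tested genes did (1.36%), 147 of them higher (0.789%) and 106 lower (0.569%). The smallest adjusted p of a collagen gene was 0.115, for Col1a2. At an unadjusted p under 0.05 there were 6 collagen genes, beside a background of 9.44% of all tested genes. Of these, 5 were higher (background 4.94%) and 1 was lower in L192P (background 4.49%). By edgeR, 0 of 39 tested collagen genes passed, and 53 of 16887 genes did (0.314%). In that fit 5 collagen genes had an unadjusted p under 0.05. The share of all genes at an unadjusted p is given only for the main DESeq2 fit. Counts at that level in other settings thus have no background here. In tissue RNA, a change in the number of cells of a type cannot be told apart from a change in RNA per cell. Scaling by total counts in place of size factors raised the higher share of all called genes from 58.1% to 72.4% and left the collagen count at 0.

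Most estimates lay above 0, that is towards higher levels in L192P. The median log2 fold change of L192P over WT was 0.10 for the 44 collagen genes and 0.0019 for all tested genes, and 30 collagen genes (68.2%) had an estimate above 0, against 50.6% of all tested genes. This rested in part on single libraries. Without WT replicate 2 the median was 0.21 and 39 genes lay above 0, and without WT replicate 3 the median was 0.04 and 23 genes lay above 0. All 4 L192P libraries lay above all 4 WT libraries for 2 collagen genes, Col13a1 and Col23a1 (background 3.01%), and below them for 0 (background 2.96%). Within the pairs of same-numbered libraries, L192P was the higher one in 4 of 4 pairs for 10 collagen genes (background 12.3%), among them Col1a1, Col1a2, Col6a2, Col6a3, Col13a1, Col23a1 and Col25a1, and the lower one in 4 of 4 for Col19a1 (background 11.4%). For 30 genes the 95% interval of the fold change lay within 1 log2 unit of 0, and for 10 genes within 0.5. The other 14 had wider intervals, and 12 of them had a mean under 50 normalized counts, so that a change of that size was left undetermined for most of them at this depth.

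**Figure D1:**
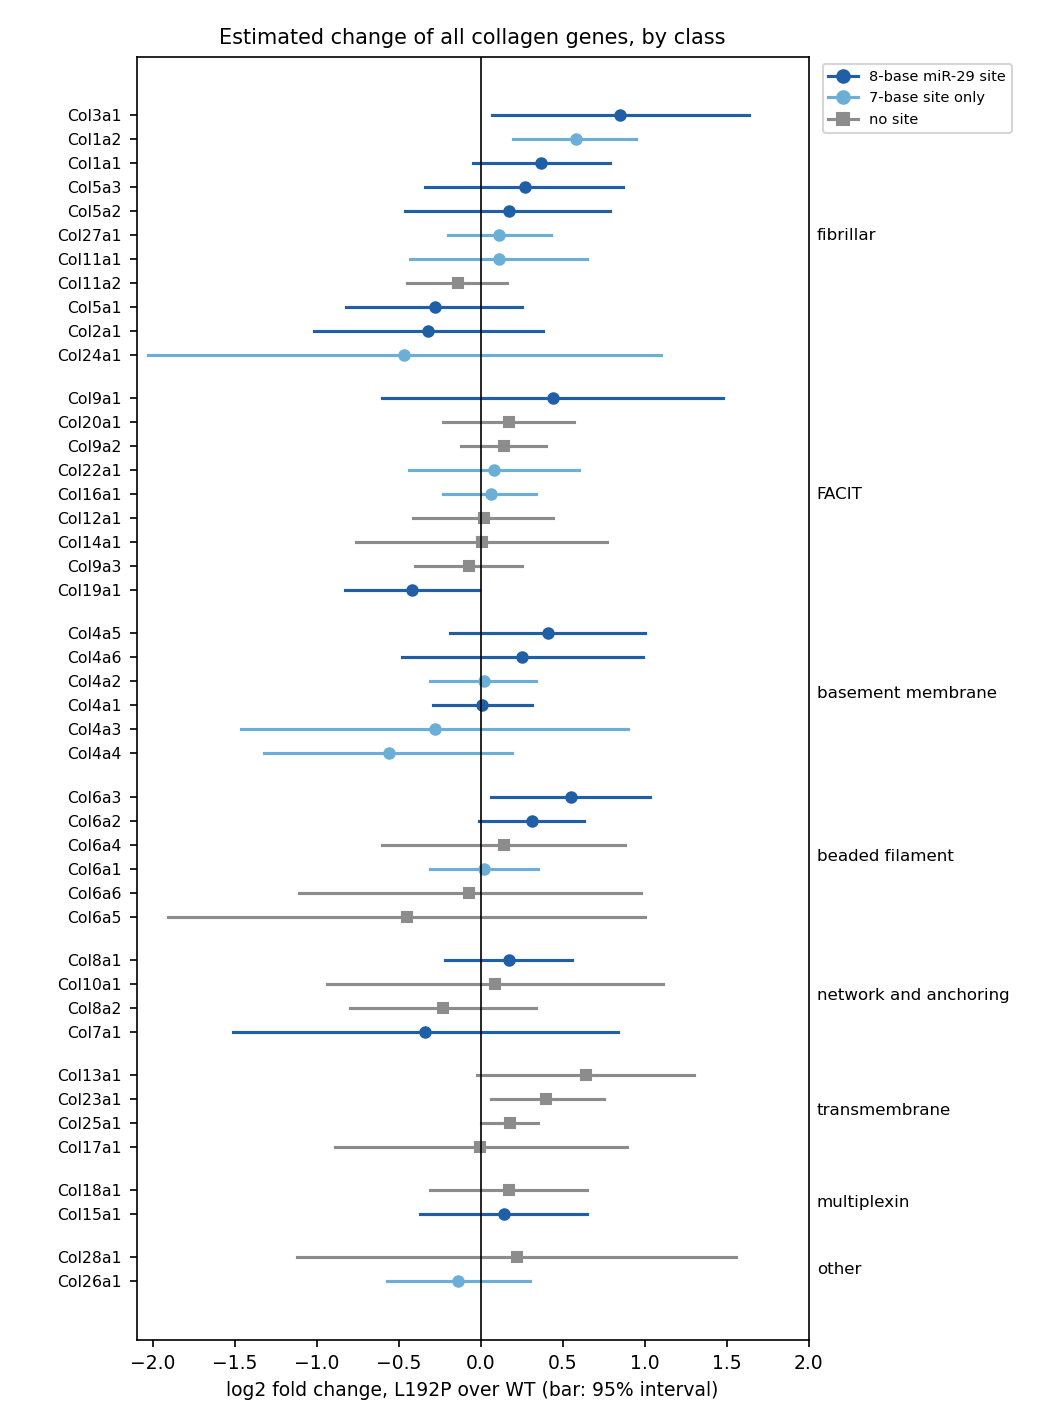
Log2 fold change of L192P over WT (x axis) for each of the 44 collagen genes (y axis), grouped by class. Points are DESeq2 estimates, bars are 95% intervals, and colour and shape give the miR-29 site in the canonical 3′ UTR. Estimates ran from -0.56 for Col4a4 to 0.85 for Col3a1. The transmembrane genes have no site in the canonical 3′ UTR, and their estimates were 0.64 for Col13a1, 0.40 for Col23a1, 0.18 for Col25a1 and -0.0025 for Col17a1.

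Among the fibrillar genes, Col1a2 came nearest to the threshold. Col1a2 (ENSMUSG00000029661, GRCm39 chromosome 6, 4504814 to 4541555, plus strand) encodes the α2 chain of type I collagen. Its normalized counts were 266.3, 481.4, 486.6 and 293.5 in L192P replicates 1 to 4 and 245.9, 306.2, 216.2 and 252.9 in WT replicates 1 to 4. L192P replicates 2 and 3 stood above every WT library, while replicates 1 and 4 lay below the highest of them, so the genotypes overlapped. The means were 381.9 ± 118.0 in L192P and 255.3 ± 37.5 in WT (SD, n = 4), and the log2 fold change was 0.58 ± 0.19 (SE), with a 95% interval from 0.20 to 0.95. The unadjusted DESeq2 p was 0.00236. The exact permutation test (two-sided, on normalized counts, without pairing) gave p = 0.0857, where the smallest p that this unpaired test allows is 0.0286.

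Whether Col1a2 passed depended on which libraries were compared and how. With the replicate number as a block, which pairs same-numbered libraries, its log2 fold change was 0.54 and the DESeq2 adjusted p was 0.0255, the 1 collagen gene called among 18 tested (background 4.25%). The same block in edgeR gave an adjusted p of 0.0517 and 0 of 39 collagen genes called (background 3.04%). Of these 39, 9 had an unadjusted p under 0.05, a level for which no background is given in this setting. Within replicates 2 to 4, that is without both Xist-low libraries, the log2 fold change was 0.69 and the DESeq2 adjusted p was 0.00811, again the 1 collagen gene called, of 30 tested (background 3.46%). Leaving out L192P replicate 1 alone gave a DESeq2 adjusted p of 0.00438 (background 1.61%), and leaving out L192P replicate 4 alone gave 0.0483 (background 0.946%). Leaving out L192P replicate 2 gave 0.48. The log2 fold change stayed between 0.44 and 0.71 in all alternatives.

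The partner chain Col1a1, which forms the type I trimer together with Col1a2, had 140.1, 249.2, 242.1 and 144.9 normalized counts in L192P and 114.7, 180.8, 171.6 and 132.3 in WT. In either genotype replicates 2 and 3 were the highest, and 2 L192P libraries lay within the WT range, although the L192P library was the higher one within each replicate number. The log2 fold change was 0.37 ± 0.21 (SE), with an adjusted DESeq2 p of 0.64. Col3a1, the chain of type III collagen that is laid down with type I, had 21.5, 48.9, 76.1 and 34.7 normalized counts in L192P and 27.3, 36.7, 14.1 and 19.9 in WT. This was the highest estimate of all collagen genes, at 0.85 ± 0.40 (SE), but L192P replicate 1 was below 2 of the WT libraries and the DESeq2 adjusted p was 0.45. Without L192P replicate 3 the estimate was 0.48, and within replicates 2 to 4 it was 1.13 with a DESeq2 adjusted p of 0.136. An exon of Gm54819 overlaps Col3a1 on the same strand.

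Col11a2, the fibrillar gene with the most counts, encodes a chain of type XI collagen. It had 296.2, 311.8, 318.2 and 357.0 normalized counts in L192P and 272.3, 473.4, 348.7 and 316.1 in WT, where replicate 2 was far above the others. Its estimate was -0.14 on the log2 scale (95% interval from -0.45 to 0.16, DESeq2 adjusted p = 0.895), and it was 0.04 without WT replicate 2. Over the 11 fibrillar genes 0 were called, 2 had an unadjusted p under 0.05, and the median log2 fold change was 0.11.

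**Figure D2:**
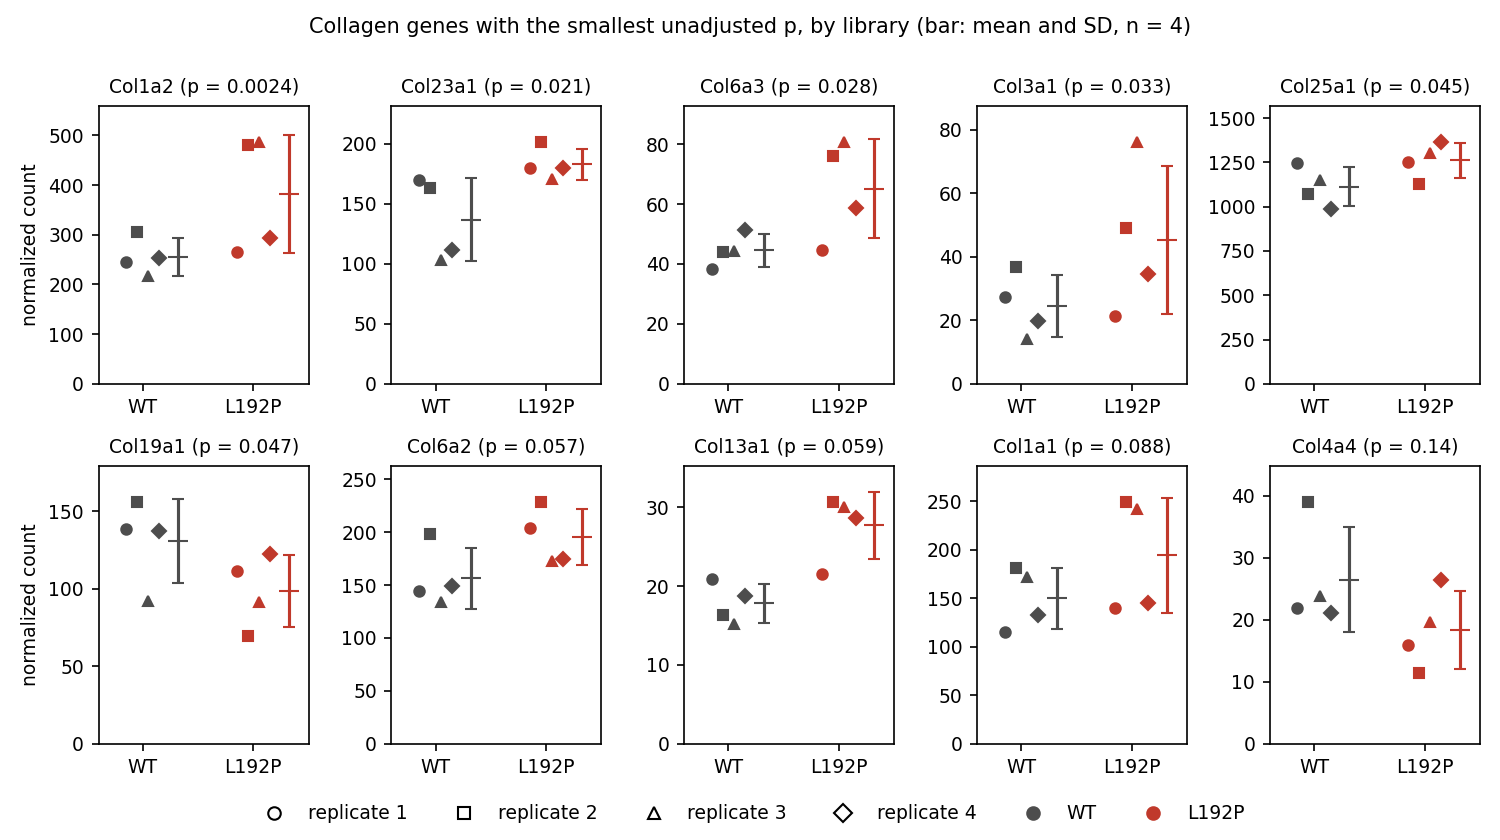
Normalized counts (y axis, from 0) in each library for the 10 collagen genes with the smallest unadjusted DESeq2 p, WT in grey and L192P in red, with a marker shape for each replicate number and the mean and SD at the right of each group. Col23a1 and Col13a1 are the panels in which the groups do not meet, and L192P replicates 2 and 3 lead in Col1a2, Col1a1, Col3a1 and Col6a3.

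The beaded filament genes encode the chains of type VI collagen, a pericellular collagen that links cells to the matrix. Col6a3 had 44.8, 76.2, 80.7 and 58.7 normalized counts in L192P and 38.2, 44.1, 44.5 and 51.5 in WT. L192P replicate 1 lay inside the WT range, and the other L192P libraries lay above it. The log2 fold change was 0.55 ± 0.25 (SE), the DESeq2 adjusted p was 0.409 and the exact permutation p was 0.0571. Col6a2 had 203.7, 228.7, 173.0 and 174.9 normalized counts in L192P and 144.8, 198.3, 133.6 and 148.7 in WT, so the groups overlapped through WT replicate 2. Its log2 fold change was 0.31 ± 0.16 (SE), with an adjusted DESeq2 p of 0.552. Col6a1, which assembles with Col6a2 and Col6a3, had 459.6, 344.8, 305.5 and 345.0 normalized counts in L192P and 356.0, 475.1, 266.1 and 330.1 in WT. The 3 chains were thus not estimated alike, Col6a1 being at 0.02 with a 95% interval from -0.31 to 0.35, although the difference between chains was not tested.

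The basement membrane genes encode the chains of type IV collagen. Col4a2, the most counted of them, had 297.1, 391.5, 379.3 and 383.3 normalized counts in L192P and 308.7, 496.0, 291.1 and 331.3 in WT. Replicate 1 was the lowest L192P library and WT replicate 2 was the highest of all, and the groups overlapped throughout. The estimate was 0.02 on the log2 scale (95% interval from -0.31 to 0.34, DESeq2 adjusted p = 0.997). Its head-to-head neighbour Col4a1, with which it forms the main network of vessels, had a log2 fold change of 0.01 (95% interval from -0.29 to 0.31), so an increase of 0.5 log2 units in either chain lay outside the intervals. Exons of Col4a1 and Col4a2 overlap on opposite strands, as do those of Col4a3 and Col4a4, and whether the counting used the strand is not stated. Col4a4, a chain of the kidney and cochlear network, had 15.9, 11.4, 19.6 and 26.4 normalized counts in L192P and 21.9, 39.0, 23.9 and 21.1 in WT. For this gene the log2 fold change was -0.56 ± 0.39 (SE), with an adjusted DESeq2 p of 0.737, and without WT replicate 2 it was -0.29. The X-linked pair Col4a5 and Col4a6 had estimates of 0.41 and 0.25 with standard errors of 0.30 and 0.37. Of the 6 genes, 0 were called and 0 had an unadjusted p under 0.05.

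The transmembrane collagens are cell-surface proteins, and their 4 genes include Col25a1, a gene of neurons and the collagen with the most counts in this tissue. Col25a1 had 1250.0, 1125.5, 1301.7 and 1364.4 normalized counts in L192P and 1243.9, 1068.8, 1148.2 and 989.2 in WT. Within each replicate number the L192P library was the higher one, by a small margin in replicate 1. Its estimate was a log2 fold change of 0.18 ± 0.09 (SE), the DESeq2 adjusted p was 0.508 and the exact permutation p was 0.114. Col23a1 had 179.4, 201.4, 170.6 and 179.7 normalized counts in L192P and 169.4, 163.3, 103.2 and 111.2 in WT, without overlap. Its log2 fold change was 0.40 ± 0.18 (SE), with an adjusted DESeq2 p of 0.361, and the exact permutation p of 0.0286 is the smallest the unpaired test can give.

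Col13a1, whose product sits at neuromuscular and other adhesion sites, had 21.5, 30.7, 30.0 and 28.7 normalized counts in L192P and 20.9, 16.4, 15.2 and 18.7 in WT. The groups did not overlap, though replicate 1 of both genotypes differed by less than 1 normalized count. This gave a log2 fold change of 0.64 ± 0.34 (SE), the DESeq2 adjusted p was 0.557 and the exact permutation p was again 0.0286. The remaining gene, Col17a1, was at -0.0025 ± 0.45 (SE). None of the 4 has a miR-29 match in its canonical 3′ UTR.

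FACIT collagens decorate the surface of fibrils, and some have neuronal roles. Col19a1, which is made by interneurons and takes part in synapse formation, was the 1 collagen gene with an unadjusted p under 0.05 and a lower estimate. It had 111.2, 69.4, 91.1 and 122.2 normalized counts in L192P and 138.4, 155.9, 92.3 and 137.0 in WT, so that WT replicate 3 fell among the L192P libraries. The log2 fold change was -0.42 ± 0.21 (SE), with an adjusted DESeq2 p of 0.516. Col9a3, the FACIT gene with the most counts, had 334.5, 418.8, 401.2 and 307.9 normalized counts in L192P and 338.7, 540.0, 335.7 and 317.3 in WT. For this gene the log2 fold change was -0.07 (95% interval from -0.40 to 0.25) and turned to 0.14 without WT replicate 2. Exons of Tcfl5 overlap Col9a3 on the opposite strand.

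The leading genes of the remaining classes had intervals that included 0. Col8a1, a short network-forming collagen of vessels, had 92.5, 141.1, 133.7 and 112.6 normalized counts in L192P and 88.3, 136.1, 106.5 and 91.3 in WT, with a log2 fold change of 0.17 (SE 0.20). Col18a1, the multiplexin of basement membranes whose end fragment is endostatin, had 47.6, 107.0, 98.0 and 75.5 normalized counts in L192P and 63.7, 82.5, 78.2 and 65.6 in WT, with a log2 fold change of 0.17 (SE 0.25). Its exons overlap those of Slc19a1 on the opposite strand. Col26a1 had 102.8, 74.0, 81.9 and 88.6 normalized counts in L192P and 67.4, 126.0, 80.4 and 106.5 in WT, with a log2 fold change of -0.14 (SE 0.22). The DESeq2 adjusted p-values were 0.914, 0.94 and 0.948 in that order. The 27 collagen genes not given in full had estimates from -0.47 to 0.44, of which 18 were above 0 and 9 below, and their smallest unadjusted p was 0.179.

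Several collagen genes lie side by side in the genome, and the neighbours did not always have like estimates. Within 150 kb of each other there were 8 pairs of adjacent members, and 6 of them had estimates of the same sign. Col3a1 and Col5a2 on chromosome 1 were at 0.85 and 0.17, Col6a2 and Col6a1 on chromosome 10 at 0.31 and 0.02, and Col9a1 and Col19a1 on chromosome 1 at 0.44 and -0.42. The differences within pairs were not tested.

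The medians of collagen genes with and without a miR-29 site depended on the libraries. The 27 genes with a site had a median log2 fold change of 0.11 and the 17 without one a median of 0.09, and the corresponding medians over all tested genes were -0.01 and 0.01. With the 8-base form alone, the 16 collagen genes had a median of 0.21 and the other 28 a median of 0.04, whereas the 541 tested genes with that form had a median of -0.01. Without WT replicate 2 the medians of collagen genes with and without any site were 0.32 and 0.16, and without L192P replicate 1 they were 0.11 and -0.01. For the 8-base form, without L192P replicate 2 the medians were 0.06 and 0.04. Both non-overlapping genes, Col13a1 and Col23a1, lacked a site. No test was made on these groups.

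Levels were compared between genes as normalized counts per kilobase of exon, over all 8 libraries. Col25a1 led with 91.0, followed by Col9a3 (82.7), Col9a2 (64.2), Col6a1 (61.6), Col4a2 (50.1), Col11a2 (45.3) and Col4a1 (35.4). The type I chains Col1a1 and Col1a2 stood at 26.2 and 25.2, the median gene at 6.86, and Col6a5 was the lowest at 0.744. None of the neighbours in this order down to Col8a2 had separate ranges over the libraries. Col9a3 was above Col9a2, and Col11a2 above Col4a1, in 8 of 8 libraries, whereas Col23a1 was above Col1a1 in 4 of 8. The choice of length mattered for 9 genes, which moved by over 1.5 times when divided by the longest transcript instead of all exons. Among them Col1a2 went from 25.2 to 58.6 and Col25a1 from 91.0 to 177 normalized counts per kilobase.

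**Figure D3:**
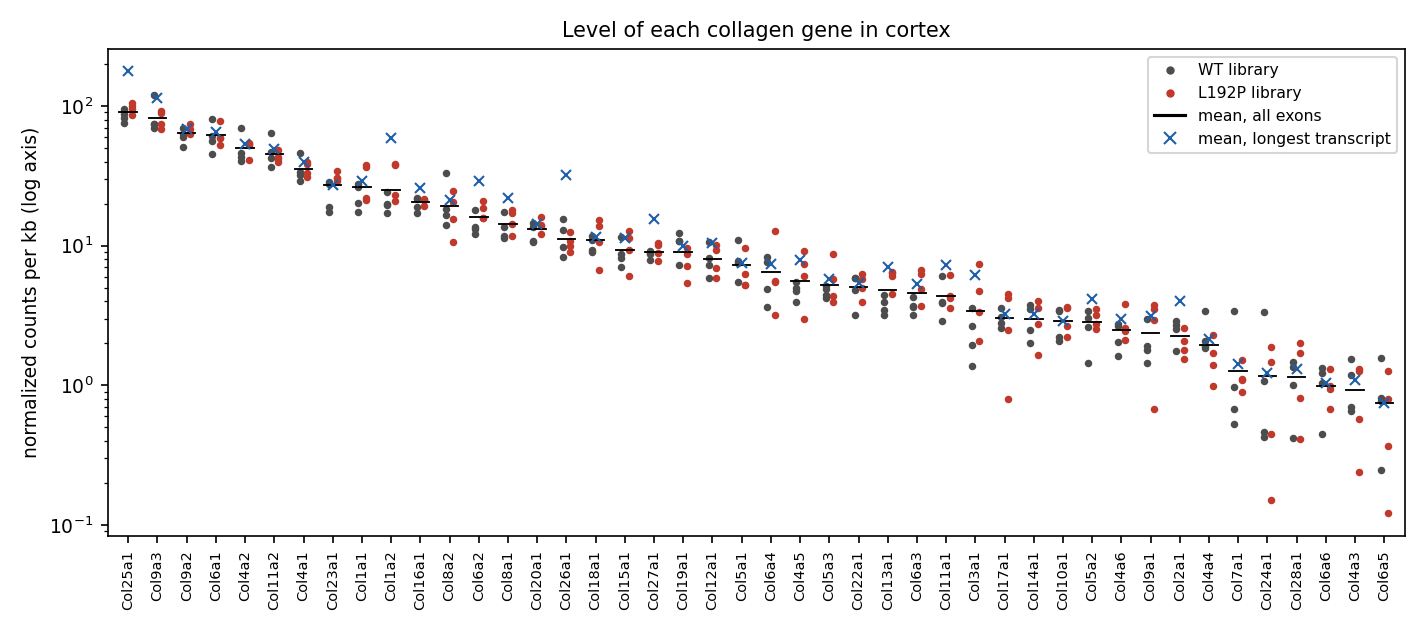
Normalized counts per kilobase of exon (y axis, log axis) of the 44 collagen genes (x axis), in order of the mean over 8 libraries. Dots are libraries, WT in grey and L192P in red, lines are means over all exons, and crosses are means per kilobase of the longest transcript. Levels span from 0.744 (Col6a5) to 91.0 (Col25a1), and grey and red dots of a gene mostly share a range.

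The genes that fold, process, bind and degrade collagen did not pass the test in L192P. Of 29 genes for folding and processing, 28 were tested and 0 were called. At an unadjusted p under 0.05, 2 were lower and 0 higher (4.49% and 4.94% of all tested genes). P4ha1, a catalytic subunit of prolyl 4-hydroxylase, had a log2 fold change of -0.23 (DESeq2 adjusted p = 0.301), and Adamts3, a procollagen N-proteinase, one of -0.38 (DESeq2 adjusted p = 0.363). Of 10 receptor genes 8 were tested, 0 were called and 0 had an unadjusted p under 0.05. The discoidin receptor Ddr2, at 0.32, and the integrin subunit Itga10, at 0.22, had the smallest p-values, with DESeq2 adjusted values of 0.701 and 0.939. Of 17 basement membrane partners 0 were called and 0 had an unadjusted p under 0.05. The laminin chain Lamb1 was at 0.17 and the proteoglycan Agrn at -0.15.

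Among 14 genes of collagen degradation, 10 were tested and 0 were called. Fap, a surface protease of activated fibroblasts, had 58.9, 58.0, 45.0 and 41.9 normalized counts in L192P and 96.5, 80.8, 69.5 and 67.9 in WT, without overlap. Its log2 fold change was -0.63 ± 0.22 (SE), with an adjusted DESeq2 p of 0.165. Timp2, an inhibitor of matrix metalloproteinases, had a log2 fold change of 0.24 ± 0.08 (SE), with an adjusted DESeq2 p of 0.168. It passed with the replicate block (0.000584 in DESeq2), which was also the case within replicates 2 to 4 (1.26e-05). WT replicate 1, at 9719.8 normalized counts, stood among the L192P libraries, which had 9358.9 to 9981.5, and the other WT libraries had 7312.9 to 8016.3. By edgeR, 0 genes of these 4 lists were called, with 5 at an unadjusted p under 0.05.

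Of 22 other known or predicted targets of miR-29, all tested, 1 rose and 1 fell by DESeq2 (0.789% and 0.569% of all tested genes). Igf1, the growth factor, had 252.2, 269.7, 288.3 and 233.6 normalized counts in L192P and 223.1, 141.2, 151.0 and 179.1 in WT. Every L192P library was above every WT library, and the log2 fold change was 0.59 ± 0.15 (SE), with an adjusted DESeq2 p of 0.016. Tdg, a DNA glycosylase of active demethylation, had 894.1, 805.7, 773.7 and 814.5 normalized counts in L192P and 1015.3, 1050.7, 995.0 and 1036.0 in WT, where every library was higher. It fell by 0.32 on the log2 scale, with a standard error of 0.07 and an adjusted DESeq2 p of 0.00323. Tdg was among the genes that the study selected on these libraries, so it is not independent evidence of a direction. The list had a median log2 fold change of 0.01. At an unadjusted DESeq2 p under 0.05, 2 of its genes were higher and 1 was lower (4.94% and 4.49% of all tested genes). By edgeR 0 of its genes were called (0.314% of all tested genes), with 4 at an unadjusted p under 0.05.

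Several markers of fibroblasts were higher in L192P by DESeq2, whereas none passed by edgeR. The list was chosen with earlier results of these data known, so its counts beside the shares of all genes are a description. Of 12 fibroblast markers, none of them a collagen, 11 were tested, 5 rose and 0 fell by DESeq2 (0.789% of all tested genes rose), and 9 were higher at an unadjusted p under 0.05 (4.94% of all tested genes). Aldh1a2, a retinoic acid synthase of the meninges, rose by 0.80 on the log2 scale (DESeq2 adjusted p = 0.00195), and Slc6a13, a GABA transporter of the leptomeninges, by 0.81 (0.0229). Slc22a6, Foxc1 and Crabp2 rose by 0.64, 0.60 and 0.72 (0.0203, 0.0255 and 0.0449 on the same test). The fibroblast markers Lum and Dcn did not pass, with log2 fold changes of 1.20 and 0.40. The number called ranged from 1 to 7 when single libraries were left out. It was 7 within replicates 2 to 4 (3.46% of all tested genes) and 0 by edgeR (0.314%), where 9 had an unadjusted p under 0.05. With the replicate block it was 3 in DESeq2 (4.25% of all tested genes), where Foxc1 and Crabp2 had adjusted p-values of 0.0552 and 0.076, and 4 in edgeR (3.04%).

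The summed fibroblast markers were 1505, 2242, 2478 and 1860 normalized counts in L192P and 1470, 1482, 1175 and 1164 in WT, and no marker was at 0 in any library. L192P replicates 2 and 3 were the highest, as they were for Col1a2, Col1a1, Col3a1 and Col6a3. They were also the highest for the summed microglia markers (9886 and 10341), so this order is not particular to fibroblast markers. The summed choroid plexus markers were highest there too (37073 and 39078), but Ttr made up most of that sum (34143.0 and 35796.2). Kl, Folr1, Aqp1, Kcnj13 and Slc4a5 were highest in WT replicate 2. The remaining choroid plexus markers were highest in L192P replicate 2 or 3. The part of the fibroblast marker difference in the collagen estimates was not tested. The summed excitatory neuron markers also did not overlap, in the other direction, with 41862 to 47162 in L192P and 47633 to 49836 in WT. Slc17a7 made up most of that sum and itself overlapped, at 28887.4 to 32579.9 in L192P and 32159.7 to 34033.3 in WT. Among the 12 markers, 1 lay wholly lower in L192P (Tle4) and 1 wholly higher (Foxp2), beside 2.96% and 3.01% of all tested genes. Of these 12 markers Cplx3 fell by DESeq2, with 4 lower and 1 higher at an unadjusted p under 0.05 (4.49% and 4.94% of all tested genes). Of 10 interneuron markers Gad2 rose, with 4 higher and 2 lower at that level, and of 10 hippocampus markers Calb2 rose and was the 1 at that level. Within WT, Calb2 did not follow the hippocampus markers Lct and Dsp, being 496.4 in replicate 3 and 807.7 in replicate 1. By edgeR 0, 0 and 1 of these 3 lists were called (0.314% of all tested genes), with 5, 5 and 1 at an unadjusted p under 0.05. With the replicate block in DESeq2 4, 4 and 1 were called, a setting that called 4.25% of all tested genes.

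The sums of the other cell type lists overlapped between the genotypes. Endothelial markers summed to 493 to 1625 in L192P and 535 to 1328 in WT, mural markers to 1767 to 3415 and 2012 to 3324, choroid plexus markers to 17097 to 39078 and 14809 to 33466, and microglia markers to 5711 to 10341 and 6306 to 7872. Of these 4 lists 0 genes were called by DESeq2 or by edgeR. At an unadjusted p under 0.05 there were 1, 0, 1 and 3 in DESeq2 (9.44% of all tested genes) and 0, 0, 0 and 3 in edgeR. The microglia markers depended on replicate 1 as the fibroblast markers did. Within replicates 2 to 4, 3 of 10 were called (3.46% of all tested genes) and 9 had an unadjusted p under 0.05. Without L192P replicate 1 alone 4 were called (1.61% of all tested genes). Endothelial markers had 1 called within replicates 2 to 4 and 1 with the replicate block (3.46% and, in DESeq2, 4.25% of all tested genes). Astrocyte and oligodendrocyte lineage markers had 0 called and 0 at an unadjusted p under 0.05 by DESeq2 or edgeR without the block.

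**Figure D4:**
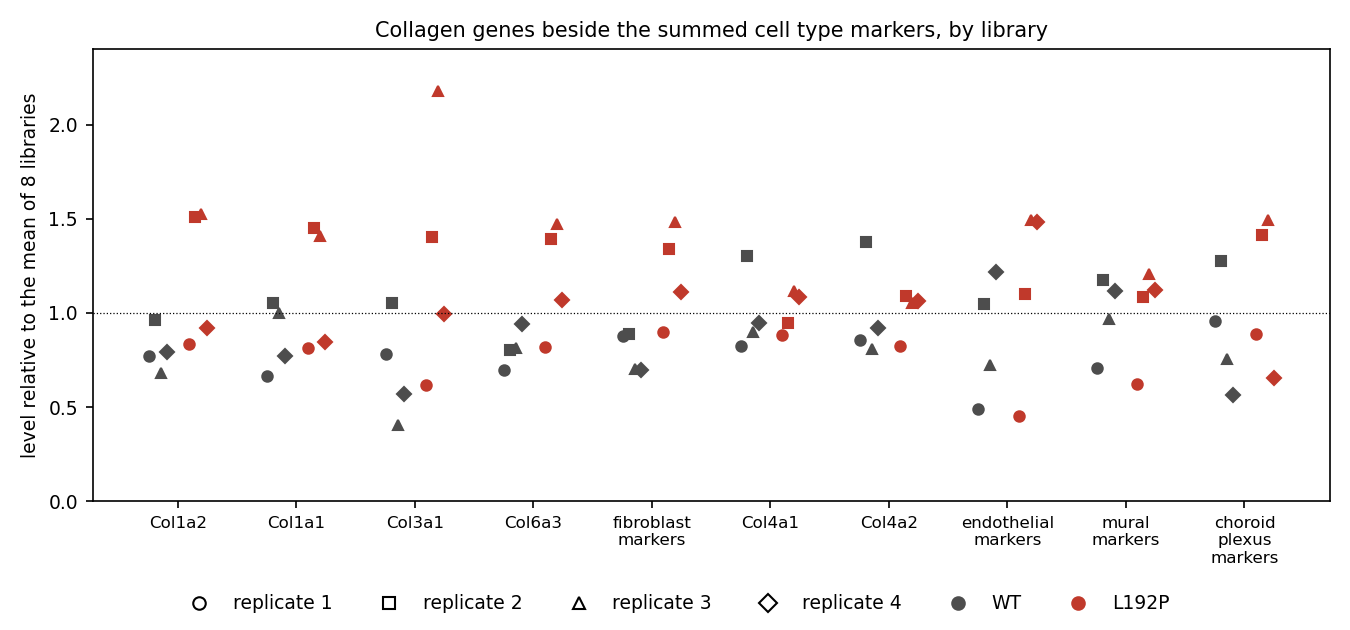
Level in each library relative to the mean of the 8 libraries (y axis, from 0) for 6 collagen genes and for the summed markers of 4 cell types (x axis), WT in grey and L192P in red, with a marker shape for each replicate number. Among these 4 marker sums, fibroblast markers are the one in which red lies wholly above grey. L192P replicates 2 and 3 lead there as in Col1a2, Col1a1, Col3a1 and Col6a3. They also lead in the summed choroid plexus markers, a sum made up mostly of Ttr. WT replicate 2 leads in Col4a1 and Col4a2.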

How the data were processed

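Stranded mRNA libraries of cortex were sequenced, 4 per genotype. Per the labels, the authors aligned the reads with STAR 2.7.9a to GRCm39 and counted them per gene with featureCounts 1.5.1, and the deposited values used here are these raw counts. The strand setting and the annotation release are not given in the sources used here. A second deposited table, of the same counts divided by size factors, was not used.

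DESeq2 1.42.0 in R 4.3.3 was fitted to all genes with genotype as the only term, after the study's methods, with calls at an adjusted p under 0.05 (Benjamini-Hochberg over all genes tested). Fold changes are unshrunken, with 95% Wald intervals. Single genes were also compared by an exact two-sided permutation test of 4 against 4 normalized counts (70 arrangements). Total counts per library ran from 20396357 to 43575900, so genes with few counts have coarse fold changes. No pair of libraries of a genotype agreed within sampling noise (chi-square per degree of freedom at least 5.98).

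The labels number the replicates without saying what a number marks. The libraries' deviations from their genotype's mean correlated between equal numbers at 0.628, 0.381, 0.233 and 0.327 over 13422 genes, and between different numbers at -0.375 to 0.144. The numbers were therefore treated as pairs in the replicate block and in the counts of pairs. The main DESeq2 fit, edgeR without the block and the permutation test did not use the pairing.

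Alternatives were edgeR 4.0.16 (quasi-likelihood, TMM), size factors from TMM or from total counts, a minimum of 10 counts in 4 libraries, independent filtering or the Cook filter off, the replicate block, replicates 2 to 4 only, and leaving out each library. Sites and lengths were taken from GENCODE M39 on GRCm39, which held 98.8% of the identifiers in the table. Counting any coding transcript for sites was added after seeing the data.

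Full values are given for members called, the 10 members with the smallest unadjusted p and the most counted member of each class (17 genes), and companion lists are named by their called genes and the 2 with the smallest p. Other genes named were chosen after their values were seen. The members, classes and lists were chosen with earlier results of these data known. On simulated counts for this comparison, 200 of 55416 genes were changed by 1 log2 unit, drawn from those with a mean of at least 50 normalized counts. DESeq2 recovered 95.5% of them and 8.17% of its calls were false. The simulation held no pairing of libraries. Only 26 of the 44 collagen genes have such a mean and their highest estimate was 0.85, so the recovered share does not carry over to the collagen genes.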

Additional observations from a re-analysis of the deposited data

Results flagged for a closer look

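In 86 groups of 4 libraries (17 collagen genes, the named genes of the companion lists and the summed lists, in each genotype), the gap between an extreme library and its nearest neighbour was compared with the range of the group, and 6 groups had a gap share above Dixon's critical value. Chance gives about 1 in 20, or 4.3 groups. In WT, replicate 2 was the high one for Col9a3 (gap share 0.904, 540.0 normalized counts against 317.3 to 338.7), for Col4a4 (0.842, 39.0 against 21.1 to 23.9) and for the sum of all collagen genes (0.836, 6450 against 4820 to 5087). L192P replicate 1 was the low one for Col4a2 (0.871, 297.1 against 379.3 to 391.5) and for the summed astrocyte markers (0.848, 48300 against 70974 to 75039). WT replicate 1 was the low one for the summed collagen receptors (0.95, 3224 against 3963 to 4002).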

How the results depend on the processing

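For the 17 collagen genes given in full, 265 of 289 values over 17 alternatives kept their direction and stayed outside the threshold, and 7 kept their direction but had no adjusted p (Col3a1, Col4a4, Col6a3, Col13a1 and Col18a1, with the replicate block or within replicates 2 to 4). Col1a2 passed in 4, with the values of the report, and its adjusted p over all alternatives ran from 0.00438 to 0.48. The log2 fold change turned in 13 values, over 5 genes whose estimates were near 0. Without single libraries, Col4a2 was between -0.07 and 0.22, Col6a1 between -0.12 and 0.20, Col9a3 between -0.16 and 0.14, Col11a2 between -0.25 and 0.04 and Col26a1 between -0.27 and 0.04. Within replicates 2 to 4, Col6a1 was at -0.12. The cause was not tested.

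The count of called collagen genes was 0 or 1 throughout. It was 1 with the replicate block and within replicates 2 to 4, and 0 to 1 when single libraries were left out. The median of the collagen genes ran from 0.04 to 0.21 and moved by less than the spread between libraries (0.16). That spread exceeds the main median of 0.10, so this does not show a stable direction. The genes with an estimate above 0 numbered 23 of 44 without WT replicate 3 and 39 of 44 without WT replicate 2. All genes called were 53 by edgeR, 533 with the replicate block, 513 with the block in edgeR, 500 within replicates 2 to 4, and 112 (without WT replicate 4) to 496 (without WT replicate 1) when single libraries were left out. Companion genes called went from 2 to 0 by edgeR, to 4 with the block in edgeR (Timp2, P4ha1, Igf1 and Tdg), and ranged from 0 (without WT replicate 2) to 4 (without WT replicate 1). Igf1 passed in 11 and Tdg in 14 of 17 alternatives, with adjusted p-values of at most 0.147 and 0.0595. Apart from Col1a2, the block changed no call of the named collagen genes that it tested, and the 5 without an adjusted p were not tested by the block in DESeq2. Sites were present in 36.4% of collagen genes when the 8-base form alone was counted. Low counts were a limit, as 6 of 44 had a mean under 10 normalized counts.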
